A study of Mus musculus with 12 samples.

Results

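The 3 hypoxic groups of a mouse glioma cell model were set against normoxia to find which responses to low oxygen were still present when either of 2 inhibitors was added. A gene was counted as kept when each of the hypoxic groups, given the solvent DMSO, brefeldin A (BFA) or EHT-1864, passed the test against normoxia in the same direction. Of 22206 probes (transcript clusters of the array), 178 were kept, which held 162 named genes of the 19505 measured, 111 of them higher and 51 lower than in normoxia. The cells were labelled S100β-v-erbB/p53-/- TSC1, of strain FVB-NJ. The S100β promoter drives v-erbB, an active relative of the epidermal growth factor receptor, and p53 is lacking in all 4 groups, so every value below belongs to p53-deficient cells. Each group held 3 arrays, and the series' design text describes 3 independent cultures. Exposure lasted 16 h, in normoxia or hypoxia with DMSO, or in hypoxia with BFA or 1 µM EHT-1864. The BFA dose is 1 µM in the protocol and 0.1 µM in the series title. The labels do not give the oxygen level, and no group received a compound in normoxia, so in the BFA and EHT-1864 groups the effect of hypoxia and that of the compound cannot be told apart. Trp53 was not among the named probes and was not analysed here.

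When oxygen is plentiful, prolyl hydroxylases encoded by the Egln genes mark the HIF-α proteins for destruction through VHL. When oxygen falls, HIF-α accumulates, pairs with ARNT, binds the sequences ACGTG or GCGTG, and raises genes for glucose uptake, glycolysis, blood vessel growth and mitophagy. Oxygen shortage can also engage the integrated stress response, in which translation slows while the transcription factor ATF4 is made and raises genes for amino acid supply. Brefeldin A stops the traffic of new proteins out of the endoplasmic reticulum (ER) and so loads it, and EHT-1864 inhibits Rac GTPases. Hypoxic zones are a known feature of high-grade gliomas.

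Signals are RMA values on the log2 scale, given in the order of arrays 1, 2 and 3. Changes are log2 differences from normoxia ± the standard error of a limma fit over all 12 arrays, with p values adjusted by the Benjamini-Hochberg method over all probes and a threshold of 0.05. The floor of an array is the 95th percentile of its negative control probes. It averaged 5.61 in normoxia and 5.61 in hypoxia with DMSO, but 6.49 with BFA and 6.01 in the EHT-1864 group, and the share of probes below it was 52.0%, 51.7%, 65.2% and 57.6% in the same order. Hybridization control probes, which are added after labelling, averaged 9.85 and 9.76 in the DMSO groups, 10.93 with BFA and 10.25 with EHT-1864. The part of these differences in the results below was not tested. Where no array of a group reached the floor, the fold is a lower bound computed against the floor and is written as "at least". The bound uses the floor of the dim group only, so it is uncertain where the other group lies near its own floor. The median change of all probes was 0.03 for the average of the hypoxic groups and -0.03 with DMSO. It was 0.10 with BFA and 0.04 in the EHT-1864 group. When only brighter probes were used (signals of 6 or higher in 3 or more arrays), these medians were -0.12, -0.002, -0.26 and -0.10. The BFA median thus changed sign with the choice of probes, and 0.10 is no baseline for the BFA changes of brighter genes.

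The mean of the 3 hypoxic groups differed from normoxia for 5332 probes (24.0% of those tested), of which 1910 (8.60%) were higher and 3422 (15.4%) lower. Renewed quantile normalization turned this split into 2361 higher and 2642 lower. All 3 group differences had the sign of the average for 3720 of these probes (16.8% of those tested), 1431 higher (6.44%) and 2289 lower (10.3%). A shared sign was often not accompanied by a passing change with DMSO: 3389 of the 3720 (91.1%) did not pass in hypoxia with DMSO, and 1582 of them differed there by less than 0.2. The requirement that each hypoxic group pass left 178 probes (0.802%), 124 of them higher (0.558%) and 54 lower (0.243%). The 3 comparisons share the normoxia arrays, so the same normoxia values enter each of them.

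The number of kept probes rested on the arrays of the DMSO groups. Without normoxia array 1, 2 or 3 it was 91, 93 or 80, and without hypoxia DMSO array 1, 2 or 3 it was 92, 90 or 91. With 1 of these 6 arrays left out, 13 to 15 falls were kept, against 54 with all arrays. A core of 57 higher and 7 lower probes was kept with each of the 12 arrays left out in turn and in 8 other settings. The core rises include Ndrg1, Vegfa, Slc2a1, Bnip3, Egln3, P4ha1, Ero1a, Bhlhe40, Ciart, Ddit3, Nupr1, Trib3, Atf4 and Hmox1, and the core falls are Sytl2, Cytl1, Pcolce2, Tfrc, Mcm3, Nup93 and Cab39l. At the edge of the rule, the largest of the 3 adjusted p values was 0.0497 for Mcrs1 and 0.0493 for Gbe1, which were kept, and 0.0502 for Eprs and 0.0511 for Tmem39a, which were not.

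Hypoxia with DMSO alone changed 593 probes (2.67%), 468 higher (2.11%) and 125 lower (0.563%). Of the 468 rises, 124 (26.5%) were kept with both compounds, 136 passed with BFA only, 28 with EHT-1864 only and 180 with neither. With BFA, 260 of the 468 were higher than in normoxia, 88 were lower and 120 did not pass. With EHT-1864, 152 were higher, 41 lower, and 275 did not pass. Of the 125 falls, 54 (43.2%) were kept, 47 passed with BFA only, 2 with EHT-1864 only and 22 with neither. With 1 array left out, 254 to 898 probes were called with DMSO, 228 to 629 higher and 23 to 269 lower. Each of the 6 arrays of the DMSO groups lowered the total to between 254 and 315 when left out, and BFA array 1 raised it to 898. The share of rises kept then ran from 23.6% to 31.3% and that of falls from 39.8% to 60.9%. For comparison, 47.0% of all probes differed from normoxia with BFA and 22.4% with EHT-1864.

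**Figure D1:**
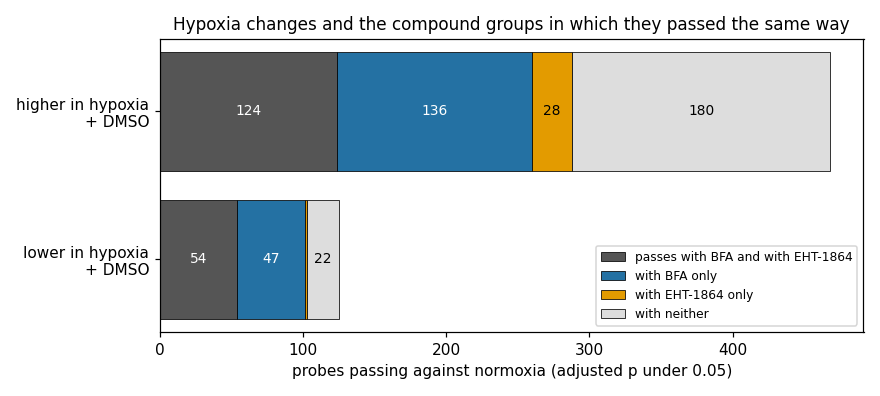
Number of probes that passed against normoxia in hypoxia with DMSO (x axis), split by the compound groups in which they passed in the same direction. Of 468 rises 124 passed with both compounds, and of 125 falls 54 did; the narrow unlabelled block in the lower bar holds 2 probes.

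Among the kept rises, the classical oxygen genes are described first, which is not an order of size. Ndrg1, a stress-responsive gene long used as a marker of hypoxia, had the largest average rise. Its log2 signal was 7.11, 6.76 and 6.78 in normoxia, 11.03, 10.83 and 10.80 in hypoxia with DMSO, 10.78, 11.13 and 11.12 with BFA, and 9.98, 9.51 and 9.89 with EHT-1864. The hypoxic arrays lay clear of normoxia in every group, with changes of 4.01 ± 0.16 with DMSO, 4.13 ± 0.16 with BFA and 2.92 ± 0.16 in the EHT-1864 group. The rise with EHT-1864 was smaller than with DMSO (difference -1.09, adjusted p = 2.88e-04), whereas the BFA and DMSO groups differed by 0.12 (adjusted p = 0.544).

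Vegfa, the main growth factor for blood vessels, read 7.64, 7.34 and 7.21 in normoxia, 10.31, 10.68 and 10.47 in hypoxia with DMSO, 10.28, 10.11 and 10.01 with BFA, and 9.50, 8.83 and 9.65 with EHT-1864. It was 8.52-fold higher than normoxia with DMSO, 6.66-fold with BFA and 3.81-fold in the EHT-1864 group, and no hypoxic array reached down to a normoxia array. Vegfa was the single kept member of 15 measured angiogenic and secreted factors, 5 of which rose in hypoxia with DMSO.

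Among 18 measured genes of glucose uptake and glycolysis, 16 rose with DMSO in hypoxia, 9 with BFA and 5 in the EHT-1864 group, against 2.11%, 23.0% and 8.10% of all probes. Kept were the glucose transporters Slc2a1 and Slc2a3, the aldolase Aldoa and the enolase Eno2. Slc2a1 read 9.15, 9.07 and 8.96 in normoxia, 11.71, 11.17 and 11.30 in hypoxia with DMSO, 10.99, 11.10 and 11.07 with BFA, and 10.47, 10.34 and 10.45 with EHT-1864, and its rise shrank stepwise from 5.06-fold with DMSO to 3.99-fold with BFA and 2.57-fold with EHT-1864; the step to BFA did not pass (adjusted p = 0.0555) and the step to EHT-1864 did (2.32e-04). Slc2a3, the high-affinity transporter, read 5.67, 5.68 and 5.67 in normoxia, 9.34, 9.11 and 9.23 in hypoxia with DMSO, 7.25, 7.91 and 8.09 with BFA, and 6.29, 6.08 and 6.35 with EHT-1864. With EHT-1864, where 2 of 3 arrays were above the floor, it exceeded normoxia by 0.57 ± 0.18 (adjusted p = 0.041), while its DMSO rise was 3.56 ± 0.18. Aldoa changed by 1.84 ± 0.12 with DMSO, 1.27 ± 0.12 with BFA and 0.82 ± 0.12 in the EHT-1864 group. Aldoart1, a near copy whose signal may share Aldoa transcripts, was also kept and is not counted as a separate response. Eno2 was below the floor in normoxia, at 4.36, 4.33 and 3.90. It was at least 2.85-fold higher with DMSO, 4.7-fold with BFA and 1.8-fold with EHT-1864 (2 of 3 arrays above the floor).

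Egln3, an oxygen-sensing prolyl hydroxylase and itself a HIF target, was kept but at very different heights. It read 6.67, 6.96 and 6.50 in normoxia, 10.18, 9.89 and 10.05 in hypoxia with DMSO, 7.77, 7.77 and 7.80 with BFA, and 7.61, 7.07 and 7.72 with EHT-1864. With DMSO it was 10-fold above normoxia, against 2.1-fold with BFA and 1.69-fold with EHT-1864, and both compound groups lay below every DMSO array. Bnip3, which tags mitochondria for removal by autophagy, showed the same order, with 7.74, 7.81 and 7.85 in normoxia, 11.13, 10.94 and 11.02 in hypoxia with DMSO, 10.03, 9.80 and 9.88 with BFA, and 8.87, 8.37 and 8.87 with EHT-1864. Its rise fell from 9.39-fold with DMSO to 4.3-fold with BFA and 1.87-fold with EHT-1864, and both steps passed (adjusted p = 3.61e-05 and 3.07e-07).

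Also kept were P4ha1, a subunit of the enzyme that hydroxylates prolines of collagen, and Ero1a, the ER oxidase that makes disulfide bonds. P4ha1 read 8.18, 8.33 and 8.30 in normoxia, 10.43, 10.48 and 10.52 in hypoxia with DMSO, 10.20, 10.38 and 10.26 with BFA, and 9.39, 9.14 and 9.51 with EHT-1864, so that the BFA arrays lay close to the DMSO arrays and the EHT-1864 arrays about midway to normoxia. Ero1a read 8.27, 8.31 and 8.40 in normoxia, 11.37, 11.40 and 11.39 in hypoxia with DMSO, 11.84, 11.86 and 11.89 with BFA, and 10.08, 9.65 and 10.24 with EHT-1864. It was higher with BFA than with DMSO by 0.47 (adjusted p = 0.0129) and lower with EHT-1864 by 1.39 (adjusted p = 1.67e-05). Kdelr3, a Golgi receptor that sends escaped ER proteins back, followed the same order, with changes of 2.09 ± 0.13 with DMSO, 3.44 ± 0.13 with BFA and 0.53 ± 0.13 in the EHT-1864 group, and was the single kept member of 24 Golgi, COPI and ARF genes.

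Ankrd37, an ankyrin-repeat HIF target, had a wide spread among the hypoxic groups. It read 5.44, 5.06 and 5.17 in normoxia, 9.34, 9.29 and 9.28 in hypoxia with DMSO, 8.02, 7.88 and 7.91 with BFA, and 5.87, 5.67 and 6.32 with EHT-1864, so that EHT-1864 arrays stayed near the floor. It was at least 12.9-fold above normoxia with DMSO and 5.02-fold with BFA. With EHT-1864 1 of 3 arrays was above the floor, and the mean of 5.95 lay under the group's mean floor of 6.01, so no bound is given. Of 15 measured histone demethylases, enzymes that need oxygen to act, 3 were kept (0.558% of all probes were kept higher). With DMSO, 6 members were higher (2.11% of all probes). With BFA, 7 were higher and 4 lower (23.0% and 24.0%). With EHT-1864, 3 were higher and 3 lower (8.10% and 14.3%). Kdm3a changed by 1.82, 1.30 and 0.58 with DMSO, BFA and EHT-1864, Kdm5b by 1.42, 0.66 and 0.75 and Kdm7a by 0.93, 0.49 and 0.76; the EHT-1864 arrays of Kdm3a (7.44, 6.69 and 7.45) overlapped normoxia (6.47, 6.71 and 6.65). Of the glycogen genes, the branching enzyme Gbe1 and the phosphatase subunit Ppp1r3c were kept, both with normoxia below the floor. Ppp1r3c read 4.69, 4.93 and 4.95 in normoxia, 8.39, 7.97 and 8.37 in hypoxia with DMSO, 5.97, 5.99 and 5.98 with BFA, and 5.67, 5.47 and 5.38 with EHT-1864, and only its DMSO arrays were above the floor, at least 6.21-fold over normoxia. Dgat2, which makes triglycerides, rose by nearly the same amount in all groups, 1.19 ± 0.18 with DMSO, 1.19 ± 0.18 with BFA and 1.25 ± 0.18 in the EHT-1864 group.

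**Figure D2:**
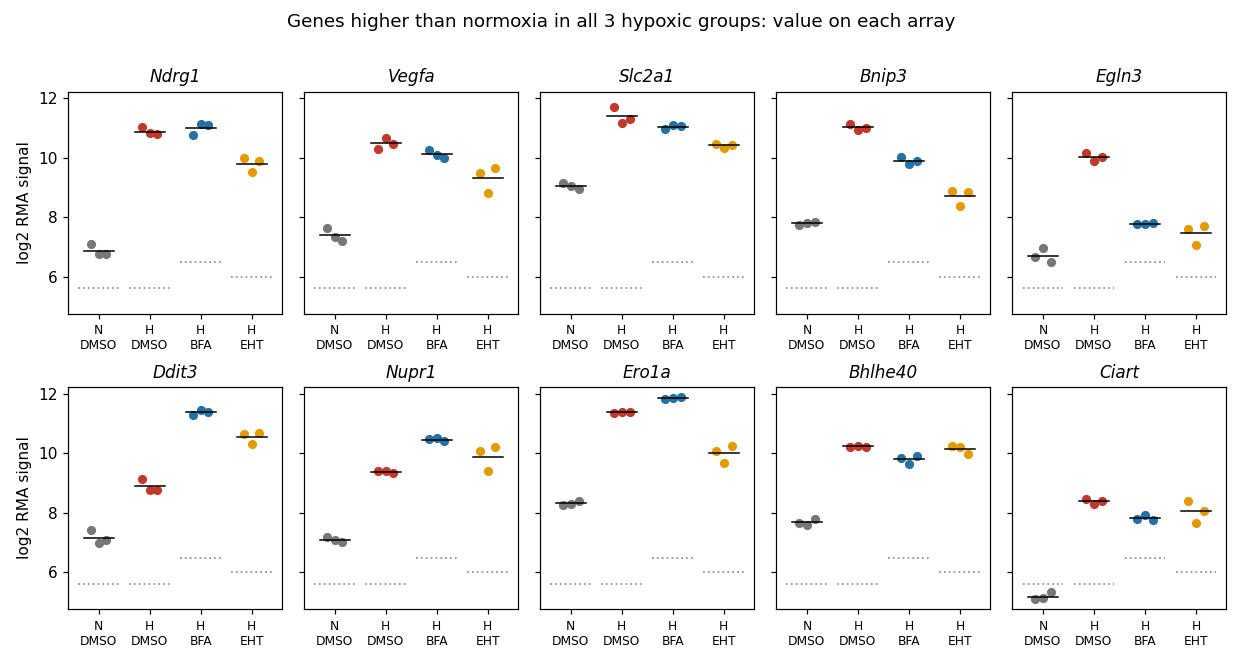
log2 RMA signal (y axis) of 10 kept genes on each array, by group (N, normoxia; H, hypoxia); points are arrays, black bars group means, and dotted lines the mean floor of the group. Egln3 and Bnip3 drop with BFA and EHT-1864 (Egln3 7.77, 7.77 and 7.80 with BFA), Ddit3 and Nupr1 stand highest with BFA, and Bhlhe40 and Ciart stay close together in the hypoxic groups.

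Because HIF binds ACGTG or GCGTG, the promoters of the kept genes were searched for these letters on both strands, from 250 bases before to 50 after the start (RefSeq, GRCm38.p6). A palindromic CACGTG counts on both strands, and matches on opposite strands can overlap. Of 111 kept higher genes 86 matched the promoter table, and 66 of them (76.7%) held a match in at least 1 window. Of 41 matched kept lower genes 23 (56.1%) held one, and of 15691 matched genes of the array 8487 (54.1%). By window the shares were 66.9%, 47.2% and 50.9%, and 43.8% over all windows of the table. CG pairs, which both motifs contain, had a median of 18.5 per window for the kept higher genes, 23 for the kept lower genes and 14 for the genes of the array. A match is a stretch of letters and not a measured binding site. The stretches below show matches in 8 kept genes, in capitals, read 5′ to 3′ in the direction of transcription, because these genes carry the main groups of kept rises. The first 5 are oxygen genes described above, Kdelr3 is the kept Golgi gene, and the last 2 are circadian repressors described below.
Ankrd37: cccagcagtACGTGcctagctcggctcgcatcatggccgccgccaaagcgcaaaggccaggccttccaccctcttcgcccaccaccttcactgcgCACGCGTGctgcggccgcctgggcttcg
Bnip3: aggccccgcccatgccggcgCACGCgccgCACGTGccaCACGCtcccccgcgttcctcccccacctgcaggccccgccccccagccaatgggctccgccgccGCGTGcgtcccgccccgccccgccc
Slc2a1: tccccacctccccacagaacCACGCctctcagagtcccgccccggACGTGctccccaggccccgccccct
P4ha1: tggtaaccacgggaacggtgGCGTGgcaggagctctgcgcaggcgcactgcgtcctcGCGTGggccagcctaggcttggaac
Ero1a: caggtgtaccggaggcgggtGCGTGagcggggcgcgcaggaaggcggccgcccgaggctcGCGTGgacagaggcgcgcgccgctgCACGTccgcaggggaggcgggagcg
Kdelr3: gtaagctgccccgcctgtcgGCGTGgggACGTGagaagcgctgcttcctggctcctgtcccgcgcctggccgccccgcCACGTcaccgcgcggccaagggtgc
Ciart: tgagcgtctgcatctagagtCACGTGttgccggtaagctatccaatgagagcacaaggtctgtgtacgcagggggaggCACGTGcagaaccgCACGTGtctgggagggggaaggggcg
Bhlhe41: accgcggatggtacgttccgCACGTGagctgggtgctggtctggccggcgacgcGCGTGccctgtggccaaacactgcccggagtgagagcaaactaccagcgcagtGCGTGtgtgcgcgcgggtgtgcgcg
These lie at chr8:45999978-46000100 (minus strand), chr7:138909517-138909643 (minus), chr4:119108664-119108733 (plus), chr10:59323113-59323194 (plus), chr14:45318611-45318720 (minus), chr15:79516301-79516403 (plus), chr3:95882247-95882364 (minus) and chr6:145865462-145865593 (minus), all upstream of the annotated start. Bnip3, Ciart and Bhlhe41 hold the palindrome CACGTG, the E-box core that circadian and MYC-family factors also bind.

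Many well-known oxygen genes were not kept, and in most of those named here the EHT-1864 group was where they fell short. Pdk1, the kinase that keeps pyruvate out of mitochondria, read 6.17, 5.78 and 6.12 in normoxia, 9.79, 9.99 and 9.88 in hypoxia with DMSO, 8.57, 8.48 and 8.23 with BFA, and 6.67, 5.83 and 7.15 with EHT-1864; its change with EHT-1864 was 0.52 ± 0.25 (adjusted p = 0.168) after 3.86 ± 0.25 with DMSO. P4ha2, the second prolyl 4-hydroxylase subunit, changed by 4.05 ± 0.15 with DMSO, 2.79 ± 0.15 with BFA and 0.35 ± 0.15 in the EHT-1864 group, and its EHT-1864 arrays nevertheless all lay above normoxia. The carbonic anhydrase Car9 and the lactate exporter Slc16a3 were above the floor on hypoxia DMSO arrays only, at 7.03, 7.22 and 7.15 and 7.23, 7.44 and 7.16. The mTOR inhibitor Ddit4 missed the threshold with EHT-1864 (adjusted p = 0.0547), with changes of 2.34 ± 0.19 with DMSO, 1.53 ± 0.19 with BFA and 0.56 ± 0.19 in the EHT-1864 group. Egln1, the principal oxygen sensor, rose with DMSO by 1.27 ± 0.21 and was lower than normoxia with EHT-1864 by 0.85 (adjusted p = 0.0108). Over 10 lists of oxygen and metabolic genes, 62 of 138 measured members rose in hypoxia with DMSO (2.11% of all probes did). Of the 62, 45 also passed higher with BFA and 24 in the EHT-1864 group, and 21 (33.9%) were kept. Of all 468 probes that rose with DMSO, 260 were also higher with BFA and 152 with EHT-1864, and 124 (26.5%) were kept. Of the 62, 55 were lower with EHT-1864 than with DMSO in hypoxia and 44 were lower with BFA. Of all probes, 17.4% were lower with EHT-1864 and 24.6% with BFA in that comparison. The 62 were chosen by their rise on the same hypoxia DMSO arrays, and the probes behind the 17.4% and 24.6% were not. That choice favours lower values with a compound, so the counts of 55 and 44 and these 2 shares are not like for like. Hif1a itself did not pass with DMSO (0.12 ± 0.13) or EHT-1864 (-0.01 ± 0.13) and was lower with BFA (-0.91 ± 0.13, adjusted p = 1.03e-04).

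Of the list of ATF4 and genes of the integrated stress response, 16 of 25 measured were kept, Atf4 included (0.558% of all probes were kept higher). This list, like the others, was chosen with earlier results of these data known, so its shares are not independent support. In the list 17 rose with DMSO in hypoxia, 23 with BFA and 19 in the EHT-1864 group, against 2.11%, 23.0% and 8.10% of all probes; 0 were lower in any group (unadjusted, 1 with EHT-1864), and 16 of the 17 (94.1%) were kept, against 26.5% of all rises with DMSO. The list's median change was 0.72 with DMSO, 1.64 with BFA and 0.85 in the EHT-1864 group, against -0.03, 0.10 and 0.04 over all probes. Among the brighter probes (signals of 6 or higher in 3 or more arrays) these medians were -0.002, -0.26 and -0.10. The remaining DMSO rise was Slc7a11, the cystine importer, with 2.03, 3.30 and 0.37. With any array left out, 11 to 17 members were kept of 13 to 19 DMSO rises, while the oxygen and metabolic lists kept 16 to 24 of 53 to 64. A refit without the 3 BFA arrays, asking for DMSO and EHT-1864 only, gave 17 of 19 and 26 of 65.

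Ddit3 (CHOP), a stress factor induced when ER load persists, read 7.41, 6.98 and 7.08 in normoxia, 9.14, 8.77 and 8.77 in hypoxia with DMSO, 11.30, 11.46 and 11.39 with BFA, and 10.66, 10.31 and 10.69 with EHT-1864. All 3 hypoxic groups were separate from normoxia and from each other, 3.33-fold higher with DMSO, 18.7-fold with BFA and 10.5-fold in the EHT-1864 group. A second Ddit3 probe was also kept, with 1.52, 4.21 and 3.30. Atf4 read 10.12, 10.29 and 10.38 in normoxia, 10.89, 11.11 and 10.96 in hypoxia with DMSO, 12.06, 12.15 and 12.03 with BFA, and 11.12, 11.05 and 11.25 with EHT-1864; it rose by 0.72 ± 0.12 with DMSO and 0.87 ± 0.12 with EHT-1864, with no passing difference between these groups (0.15, adjusted p = 0.354), and by 1.81 ± 0.12 with BFA. Nupr1, a small stress-induced chromatin protein, read 7.18, 7.07 and 7.02 in normoxia, 9.40, 9.40 and 9.32 in hypoxia with DMSO, 10.47, 10.50 and 10.41 with BFA, and 10.06, 9.39 and 10.21 with EHT-1864. Both compound groups exceeded the DMSO group (adjusted p = 2.28e-04 and 0.0409), although 1 EHT-1864 array lay among the DMSO arrays. Trib3, a pseudokinase that feeds back on ATF4, changed by 1.88 ± 0.20 with DMSO, 2.69 ± 0.20 with BFA and 2.25 ± 0.20 in the EHT-1864 group. Chac1, which breaks down glutathione, read 6.56, 6.71 and 6.67 in normoxia, 8.05, 8.04 and 7.96 in hypoxia with DMSO, 9.15, 9.59 and 9.42 with BFA, and 8.06, 7.21 and 8.14 with EHT-1864, with the BFA arrays above all others.

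The remaining kept members of the list covered amino acid uptake and folate metabolism. The transporter subunits Slc7a5 and Slc3a2, which together import large neutral amino acids, rose by 0.73, 0.74 and 0.54 and by 0.69, 0.77 and 0.97 with DMSO, BFA and EHT-1864, and no difference from DMSO in hypoxia passed (adjusted p between 0.0729 and 0.957). The cationic transporter Slc7a1 rose by 0.66, 0.98 and 0.94. Its relative Slc7a3, below the floor in normoxia and with EHT-1864, was at least 1.78-fold higher with DMSO and 4.99-fold with BFA. Mthfd2 of mitochondrial folate metabolism rose by 0.61, 1.12 and 0.85, and the transcription factors Atf5 and Cebpg by 1.24, 1.64 and 1.37 and 0.66, 0.89 and 0.92. Vldlr, a lipoprotein receptor, changed by 2.01 ± 0.17 with DMSO, 1.92 ± 0.17 with BFA and 0.74 ± 0.17 in the EHT-1864 group. Ppp1r15a, the phosphatase subunit that ends the stress response, was below the floor in normoxia and at least 1.3-fold higher with DMSO, 5.23-fold with BFA and 1.7-fold with EHT-1864. Sesn2, which restrains mTORC1, rose by 0.98, 1.38 and 0.79. Fgf21, a stress-induced hormone, was at 11.18, 11.46 and 11.36 with BFA and below the floor on every EHT-1864 array (4.41, 4.26 and 5.22); it was at least 52.8-fold above normoxia with BFA, and its EHT-1864 and normoxia values (3.52, 4.31 and 3.63) overlapped. Outside the list, the aminoacyl-tRNA synthetases Sars, Nars and Lars were kept with changes of 0.58, 1.15 and 0.78, 0.47, 1.04 and 0.52 and 0.70, 0.92 and 0.40, as were Eif4ebp1, a brake on translation (1.09, 1.81 and 1.38), Pck2 (1.05, 2.63 and 0.78) and the mitochondrial folate enzyme Aldh1l2 (1.59, 3.04 and 0.47); these 6 were picked after their values were seen. Eprs missed the rule by 1 adjusted p of 0.0502. By contrast, 0 of 23 ER chaperone and degradation genes were kept by limma (2 at an unadjusted p under 0.05 in each group): 0 were higher with DMSO (5 unadjusted) and 1 lower, 21 were higher with BFA (23.0% of all probes), and 5 were higher (8.10%) and 9 lower (14.3%) with EHT-1864. The chaperone Hspa5 changed by -0.12 ± 0.10 with DMSO, 1.15 ± 0.10 with BFA and -0.77 ± 0.10 in the EHT-1864 group.

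ATF4 pairs with C/EBP proteins on the letters TGATGNAA, and this motif was searched on both strands of the same windows after the values were seen. It was in 5 of 14 matched kept members of the list (35.7%), namely Chac1, Fgf21, Nupr1, Trib3 and Vldlr, in 13 of 86 matched kept higher genes (15.1%), in 0 of 41 matched kept lower genes and in 3.95% of matched genes of the array (3.97% of all windows of the table). In 4 of the 5 the strand shown reads TTGCATCA, a match on the opposite strand, printed in capitals. The search itself fixes all but 1 of these letters.
Chac1: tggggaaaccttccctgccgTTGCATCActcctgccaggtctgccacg
Fgf21: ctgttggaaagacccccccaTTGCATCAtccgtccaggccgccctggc
Nupr1: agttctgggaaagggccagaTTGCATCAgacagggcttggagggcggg
Vldlr: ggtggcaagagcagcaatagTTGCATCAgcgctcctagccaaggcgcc
They lie at chr2:119351029-119351076 (plus strand), chr7:45615602-45615649 (minus), chr7:126625553-126625600 (minus) and chr19:27216800-27216847 (plus), and a match says nothing of binding in these cells.

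Several regulators tied to the circadian clock were kept, some with even and some with uneven changes. No list of clock genes was set, so the share of clock genes that was kept is not given. Nfil3 was picked after its values were seen. Bhlhe40 (DEC1), a HIF target that represses clock genes, read 7.67, 7.60 and 7.79 in normoxia, 10.22, 10.25 and 10.22 in hypoxia with DMSO, 9.84, 9.64 and 9.90 with BFA, and 10.23, 10.21 and 9.96 with EHT-1864. The hypoxic arrays lay close together and far above normoxia. The EHT-1864 group differed from DMSO by -0.09 (adjusted p = 0.602) and the BFA group by -0.43 (adjusted p = 0.00997). Ciart, a repressor of CLOCK and BMAL1, was below the floor in normoxia and read 5.10, 5.12 and 5.32 in normoxia, 8.46, 8.30 and 8.40 in hypoxia with DMSO, 7.80, 7.94 and 7.76 with BFA, and 8.41, 7.67 and 8.07 with EHT-1864. It was at least 6.85-fold higher with DMSO, 4.67-fold with BFA and 5.42-fold in the EHT-1864 group. Bhlhe41 (DEC2), the paralogue of Bhlhe40, stood highest with EHT-1864, at 8.88, 8.51 and 8.66 against 6.59, 6.43 and 6.59 with DMSO and 6.14, 6.04 and 6.27 with BFA, where it was below the floor. The clock-linked nuclear receptor Rora was kept by both of its probes, with 1.30, 1.47 and 2.09 for the brighter and 1.18, 1.15 and 1.03 for the other, and the repressor Nfil3 rose by 0.85, 0.89 and 0.99. Mxi1, a MYC antagonist, rose by 1.08, 0.35 and 1.03 and was lower with BFA than with DMSO (adjusted p = 3.34e-04). Of 18 hypoxia-linked repressor and stress genes, 9 rose with DMSO and 6 were kept (2.11% and 0.558% of all probes). With BFA, 10 members were higher and 5 lower (23.0% and 24.0% of all probes). With EHT-1864, 10 were higher and 2 lower (8.10% and 14.3%).

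Among the 8 most even of the kept genes with an average change of at least 1 were, besides Dgat2, the dimmer Rora probe, Bhlhe40, Ciart, Atf5 and Ndrg1, the homeobox repressor Tgif1. Tgif1 changed by 1.08, 1.04 and 1.01 (adjusted p of the F test 0.92). Evenness was ranked by the range of the 3 group changes as a share of the average change. Unequal changes can thus rank as even where the average is large. Ndrg1, Bhlhe40 and Ciart did differ among the hypoxic groups (adjusted p of the F test 5.41e-05, 0.0181 and 0.0301). The least even were Gfpt2, Plpp4, Ppp1r3c, Shmt1, Pcolce2, Aldh1l2, Egln3 and Arrdc3. Arrdc3, an arrestin-domain gene, read 8.46, 8.28 and 8.19 in normoxia, 9.09, 9.09 and 9.03 in hypoxia with DMSO, 8.98, 9.05 and 8.96 with BFA, and 11.11, 11.09 and 10.99 with EHT-1864, nearly the same with DMSO and BFA and far higher with EHT-1864. Over all probes, 58.1% differed among the hypoxic groups by the F test, as did 95 of the 124 kept rises and 45 of the 54 kept falls.

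Other kept rises follow. Hmox1, the heme-degrading enzyme, read 7.90, 7.90 and 7.79 in normoxia, 9.77, 9.75 and 9.82 in hypoxia with DMSO, 11.72, 11.69 and 11.73 with BFA, and 10.29, 9.89 and 10.29 with EHT-1864; it rose 3.78-fold with DMSO, 14.4-fold with BFA and 4.9-fold in the EHT-1864 group. Ptgs2 (COX-2), which makes prostaglandins, was below the floor in normoxia and in hypoxia with DMSO, where its signal was 4.66, 4.52 and 4.13 against 3.75, 3.23 and 3.65, and was at least 2.56-fold above normoxia with BFA and 1.86-fold with EHT-1864. Adm2, a vasodilator peptide of the adrenomedullin family, and Cyb5r2, a cytochrome b5 reductase, were below the floor in normoxia. Adm2 was at least 2.06-fold higher with DMSO, 4.44-fold with BFA and 1.5-fold with EHT-1864 (2 of 3 arrays above the floor). Cyb5r2 was at least 1.32-fold higher with DMSO and 2.35-fold with BFA (2 of 3 arrays above the floor), and was below the floor on all EHT-1864 arrays. The brakes on cell division Cdkn1b (p27), Ccng2 and Btg1 were kept, and so was the stress gene Gadd45g. Cdkn1b read 8.51, 8.38 and 8.39 in normoxia, 9.10, 9.01 and 9.11 in hypoxia with DMSO, 9.29, 9.24 and 9.23 with BFA, and 9.17, 9.01 and 9.12 with EHT-1864, with changes of 0.65, 0.83 and 0.68 and no passing difference among the hypoxic groups (adjusted p of the F test 0.269). Ccng2 rose by 1.55, 0.96 and 1.53, Btg1 by 0.80, 1.00 and 1.95 and Gadd45g by 0.90, 0.84 and 2.87. The matrix gene Fn1 (fibronectin) rose by 1.18, 1.78 and 2.77 and the lysosomal protease Ctsl by 0.78, 2.89 and 1.62. Of the genes in this paragraph, Hmox1, Ptgs2, Adm2 and Cyb5r2 were named for the size of their rise and the others after their values were seen.

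Across the 124 kept rises the median change was 0.95 with DMSO, 1.19 with BFA and 0.94 in the EHT-1864 group. In 34 the change was at least 2-fold in each group. Against DMSO in hypoxia, 53 were larger with BFA, 21 smaller and 50 did not pass; with EHT-1864, 28 were larger, 28 smaller and 68 did not pass. Of all probes, 50.7% differed with BFA and 30.5% with EHT-1864 in these comparisons. Neither compound passed against DMSO for 28 kept rises, both enlarged 13 and both reduced 13. The rises were chosen on the same arrays, and the DMSO comparison had the largest adjusted p in 77 of the 124. The counts against DMSO, here and for the lists that follow, are thus partly set by the rule. Of the 16 kept members of the ATF4 list, 10 were larger with BFA and 6 did not pass, and 2 were larger and 3 smaller with EHT-1864. Of the 21 kept oxygen and metabolic genes, 2 were larger with BFA and 12 smaller, and 2 were larger and 15 smaller with EHT-1864. The difference between these lists was not tested. In normoxia 27 of the 124 were below the floor on all arrays, and 4 were below it on all 12 arrays of the study. All 9 hypoxic arrays lay above all normoxia arrays for 121, close to what the rule asks for (2.45% of all probes have this arrangement).

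**Figure D3:**
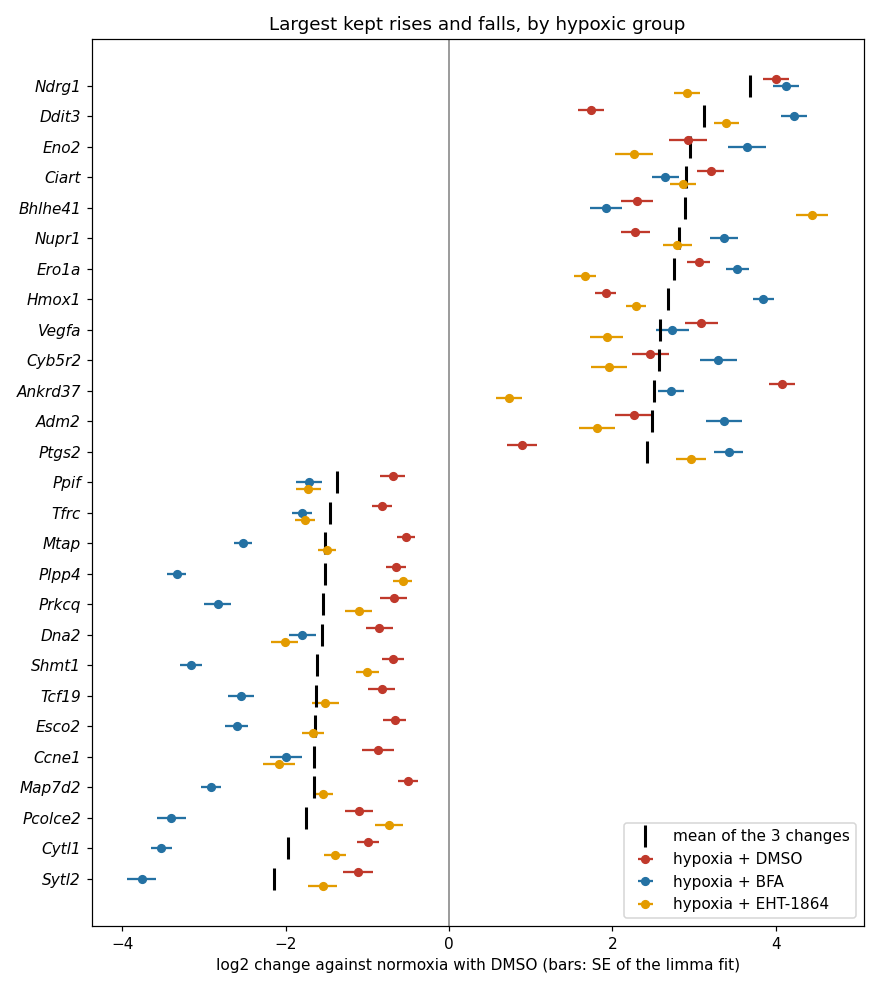
log2 change against normoxia (x axis) of the genes with the largest average rises (13 genes) and falls (14 genes) among the kept, by hypoxic group, with the standard error of the limma fit as bars and the mean of the 3 changes as a black tick; where a group is below the floor, the measured signals are plotted and the size of the change is uncertain. Only genes with all hypoxic arrays on 1 side of normoxia are shown, which leaves out Fgf21 despite its large average rise. Ankrd37 runs from 0.73 with EHT-1864 to 4.08 with DMSO. The falls lie closest to 0 with DMSO, apart from Pcolce2 and Plpp4, where EHT-1864 does.

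The largest kept falls included genes of secretion, matrix and DNA replication. The median change of the kept falls was -0.64 with DMSO, -1.51 with BFA and -0.85 in the EHT-1864 group. In 43 of 54 the fall was larger with BFA than with DMSO and in 19 larger with EHT-1864 (24.6% and 17.4% of all probes were lower in these comparisons). By limma 0 were smaller with either compound (0 at an unadjusted p under 0.05). The DMSO comparison had the largest adjusted p in 52 of the 54, and a fall with a compound had to pass as well. The rule thus left little room for a smaller fall with a compound, and these counts are partly set by it. All 9 hypoxic arrays lay below all normoxia arrays for each of the 54, which follows closely from the rule (4.80% of all probes have this arrangement). Sytl2, an effector of Rab27 in vesicle docking, was the single fall of at least 2-fold in every group. It read 9.18, 9.15 and 9.18 in normoxia, 7.85, 8.06 and 8.25 in hypoxia with DMSO, 5.59, 5.50 and 5.13 with BFA, and 7.53, 8.01 and 7.32 with EHT-1864, and it was 2.17-fold lower with DMSO, at least 6.39-fold lower with BFA and 2.92-fold lower in the EHT-1864 group. Cytl1, a secreted cytokine-like protein, changed by -0.99 ± 0.13 with DMSO and -1.40 ± 0.13 with EHT-1864, and Pcolce2, which promotes collagen processing, by -1.10 ± 0.17 and -0.74 ± 0.17. Both were below the floor on all BFA arrays, at least 4.06-fold and 2-fold lower than normoxia.

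Genes of the S phase and of mitosis were among the kept falls. Ccne1 (cyclin E1), which drives entry into S phase, read 7.94, 8.04 and 7.64 in normoxia, 7.03, 6.94 and 7.03 in hypoxia with DMSO, 6.35, 5.64 and 5.64 with BFA, and 6.08, 5.74 and 5.55 with EHT-1864. It was 1.83-fold lower with DMSO and at least 2.6-fold lower with BFA, where every array was below the floor. With EHT-1864 the signal was 4.24-fold lower, but 1 of 3 arrays was above the floor, so this size is uncertain. Mcm3, a subunit of the replicative helicase, read 9.38, 9.42 and 9.34 in normoxia, 8.67, 8.65 and 8.84 in hypoxia with DMSO, 7.50, 7.63 and 7.51 with BFA, and 8.89, 8.68 and 8.80 with EHT-1864; the DMSO and EHT-1864 arrays overlapped one another (difference 0.07, adjusted p = 0.653) and the BFA arrays lay lower still. Cdk1, the mitotic kinase, read 9.88, 9.87 and 9.77 in normoxia, 9.33, 9.24 and 9.26 in hypoxia with DMSO, 8.03, 8.48 and 8.11 with BFA, and 8.95, 9.16 and 8.96 with EHT-1864, with changes of -0.56 ± 0.13 with DMSO, -1.64 ± 0.13 with BFA and -0.82 ± 0.13 in the EHT-1864 group. Mad2l1, of the spindle checkpoint, fell by nearly the same amount in each group, -0.68 ± 0.13 with DMSO, -0.53 ± 0.13 with BFA and -0.72 ± 0.13 in the EHT-1864 group. Dna2, a replication helicase and nuclease, stood just above the floor in normoxia, at 6.17, 6.13 and 5.83, and below it on every hypoxic array. Esco2, which joins sister chromatids, and Tcf19, a gene raised at the G1/S transition, were kept. Esco2 changed by -0.66 with DMSO and, below the floor on all arrays of both compound groups, was at least 1.6-fold lower with BFA and 2.24-fold lower with EHT-1864. Tcf19 changed by -0.82, -2.55 and -1.51 (DMSO, BFA and EHT-1864), with 2 of 3 BFA arrays above the floor. By list, 4 of 23 G1/S and replication genes were lower with DMSO, 21 with BFA and 6 in the EHT-1864 group, and 2 were kept; of 24 G2/M and mitosis genes 2, 24 and 11 were lower, and 2 were kept. By limma 0 members of either list were higher in any group (unadjusted, 1 G2/M gene with EHT-1864), and 0.563%, 24.0% and 14.3% of all probes were lower. Of the next genes, Tk1 and Fanca were below the floor on all BFA arrays, Spc24 was above it on 1, and Gmnn was above it on 1 normoxia array and no hypoxic array, so their values there are those of dim signals. Further kept falls picked after their values were seen include Tk1 (-0.61, -0.99 and -0.63), which makes thymidine nucleotides, the replication factors Mcm10 (-0.80, -1.35 and -0.62), Gmnn (-0.58, -0.84 and -1.12) and Rpa2 (-0.49, -0.75 and -0.92), the histone chaperones Chaf1a (-0.66, -1.08 and -0.59) and Asf1b (-0.51, -1.67 and -1.38), the repair genes Fanca (-0.65, -0.99 and -0.66) and Rad54l (-0.68, -1.14 and -0.87), and the kinetochore genes Nuf2 (-0.71, -1.45 and -0.52) and Spc24 (-0.61, -0.55 and -0.51). In bulk cultures, fewer cells in a phase and less RNA per cell cannot be told apart.

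**Figure D4:**
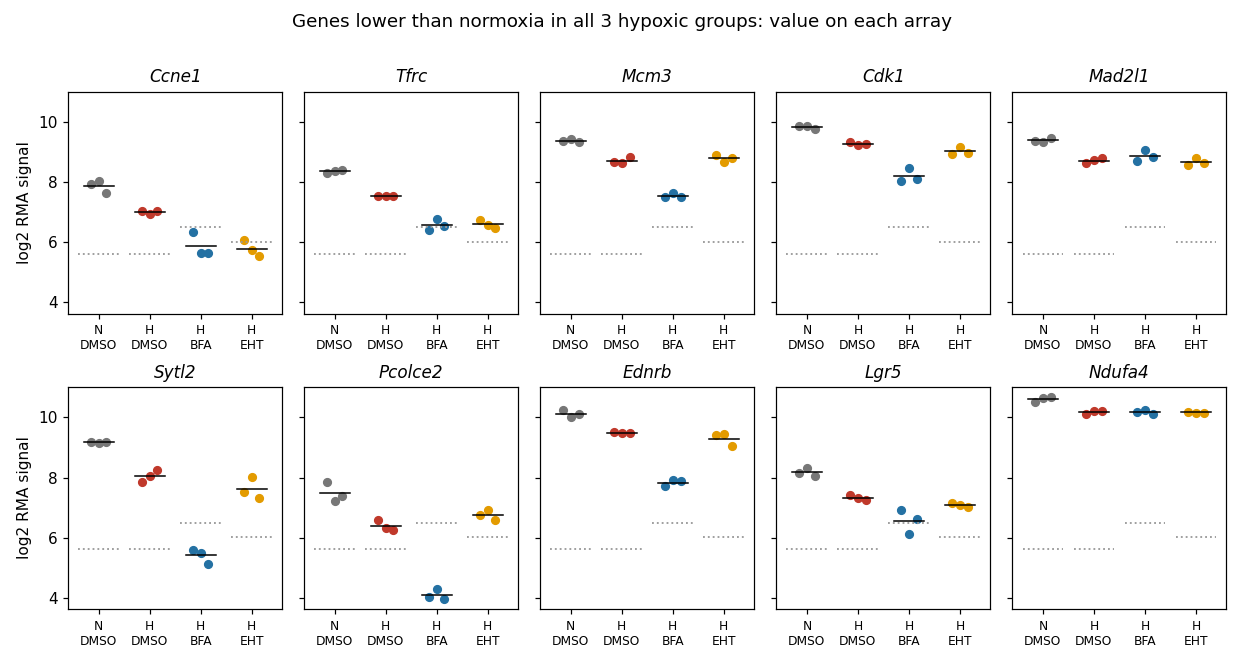
log2 RMA signal (y axis) of 10 genes kept lower, on each array, by group (N, normoxia; H, hypoxia); points are arrays, black bars group means, and dotted lines the mean floor of the group. Every hypoxic array lies below normoxia, and Ndufa4 and Mad2l1 differ least among the hypoxic groups.

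Several other falls concerned iron, mitochondria and metabolism. Tfrc, the transferrin receptor that brings in iron, read 8.30, 8.38 and 8.39 in normoxia, 7.53, 7.55 and 7.55 in hypoxia with DMSO, 6.40, 6.76 and 6.53 with BFA, and 6.74, 6.58 and 6.47 with EHT-1864; it was 1.76-fold lower with DMSO, 3.47-fold with BFA and 3.38-fold in the EHT-1864 group, and both compounds passed against DMSO (adjusted p = 2.95e-05 and 1.13e-04). Ppif (cyclophilin D), which regulates the mitochondrial permeability pore, changed by -0.69 ± 0.16 with DMSO, -1.71 ± 0.16 with BFA and -1.72 ± 0.16 in the EHT-1864 group. Shmt1, the cytosolic serine hydroxymethyltransferase, changed by -0.69 ± 0.14 with DMSO and -0.997 ± 0.14 with EHT-1864 and was at least 3.85-fold lower with BFA, where no array reached the floor, opposite in direction to the kept mitochondrial folate genes Mthfd2 and Aldh1l2. Mtap, of methionine salvage, read 10.68, 10.58 and 10.72 in normoxia, 10.06, 10.23 and 10.12 in hypoxia with DMSO, 8.14, 8.21 and 8.06 with BFA, and 9.21, 9.08 and 9.24 with EHT-1864. The lipid phosphatase Plpp4 changed by -0.65 with DMSO and -0.57 with EHT-1864 and was at least 5.54-fold lower with BFA, below the floor on all 3 arrays. The kinase Prkcq (protein kinase C theta) changed by -0.68, -2.83 and -1.11 and Map7d2, which binds microtubules, by -0.50, -2.92 and -1.54 (DMSO, BFA and EHT-1864), with 1 and 2 of 3 BFA arrays above the floor. Gfpt2, of the hexosamine pathway, was the least even of all, with -0.52 ± 0.12 with DMSO, -2.70 ± 0.12 with BFA and -0.40 ± 0.12 in the EHT-1864 group. Ndufa4, a subunit of cytochrome c oxidase, was the most even fall and was picked after its values were seen. It read 10.52, 10.66 and 10.68 in normoxia, 10.12, 10.21 and 10.21 in hypoxia with DMSO, 10.17, 10.23 and 10.12 with BFA, and 10.20, 10.16 and 10.15 with EHT-1864, a change of -0.44 ± 0.10 with DMSO, -0.44 ± 0.10 with BFA and -0.45 ± 0.10 in the EHT-1864 group. Ednrb, the endothelin B receptor, and Lgr5, a receptor for R-spondins, were picked in the same way and changed by -0.64, -2.30 and -0.83 and -0.85, -1.64 and -1.08. Of the 28 respiratory chain genes of the list, 0 were kept by limma (2 at an unadjusted p under 0.05 in each group).

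**Figure D5:**
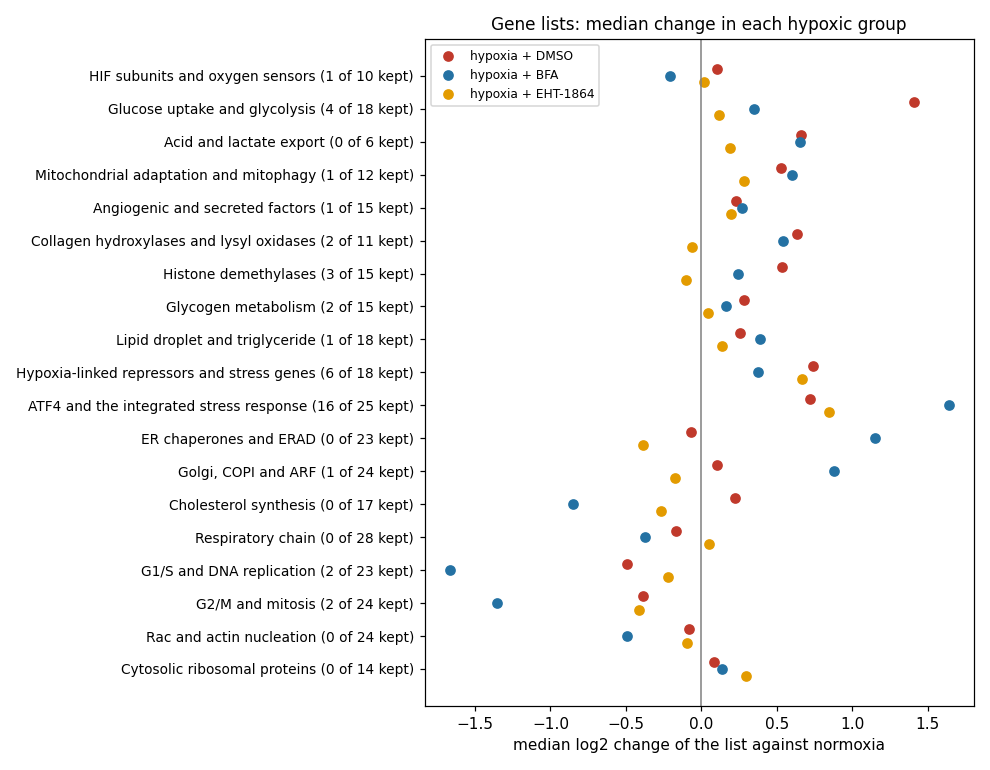
Median log2 change against normoxia (x axis) of each gene list in the 3 hypoxic groups, with the number of kept and measured members beside its name. The ATF4 list is shifted to the right in all groups (0.72, 1.64 and 0.85), whereas glucose uptake and glycolysis is at 1.41 with DMSO, 0.35 with BFA and 0.12 in the EHT-1864 group.

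Genes that passed in the average without being kept show what the stricter rule left out. The changes that follow are in the order DMSO, BFA, EHT-1864. Among oxygen genes, Higd1a, which supports the respiratory chain under low oxygen (1.86, 1.22 and 0.29), and Pgm1, which links glycogen to glycolysis (2.16, 1.18 and -0.07), rose with DMSO and BFA but did not pass with EHT-1864. The vasodilator Adm and the hormone Stc1 were above the floor on the DMSO hypoxia arrays only, at least 1.5-fold and 1.93-fold over normoxia. Of the lipid droplet proteins, Hilpda (0.55, 1.23 and -0.22) rose with DMSO and BFA and was below the floor on all EHT-1864 arrays, whereas Plin2 (0.79, 0.32 and 1.15) rose with DMSO and EHT-1864 and did not pass with BFA. The stress factor Atf3 (0.44, 3.50 and 2.72) passed with both compounds and not with DMSO (adjusted p = 0.118), and so did the ER genes Dnajb9 (0.25, 2.60 and 0.68), Derl3 (0.07, 2.63 and 0.62) and Herpud1 (0.51, 2.05 and 0.63).

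In the lists whose members were lower in the average, few members passed with DMSO. Of all probes 15.4% were lower and 8.60% higher in the average. Of 23 G1/S and replication genes 21 were lower in the average and of 24 G2/M genes 22, although 2 of each list were kept. Rrm2, which makes deoxynucleotides (-0.70 with DMSO, at least 5.77-fold lower with BFA, -1.93 with EHT-1864), Ccna2, cyclin A2 (-0.50, -2.33 and -1.29), and the mitotic kinase Aurkb (-0.45, -2.02 and -1.41) did not pass with DMSO (adjusted p = 0.0678, 0.0649 and 0.108). Of 17 cholesterol synthesis genes 8 were lower in the average and 0 were kept by limma (0 at an unadjusted p under 0.05 in each group), with Dhcr7 at -0.02, -2.21 and -1.03 and Hsd17b7 at 0.22 with DMSO, -0.40 with EHT-1864 and at least 2.87-fold lower with BFA. Of 24 Rac and actin nucleation genes 10 were lower in the average and 0 were kept (2 unadjusted), among them Wasf1 (-0.36, -2.24 and -0.30) and Arpc1b (-0.32, -1.91 and -0.24). In the respiratory chain list 7 of 28 were lower in the average, such as Uqcrc1 of complex III (-0.33, -1.10 and -0.68), and Cyc1 (-0.50, -0.85 and -0.17) was lower with DMSO and BFA. Of 14 ribosomal protein genes 3 were higher in the average and 0 were kept (1 unadjusted). The HIF partner Arnt changed by 0.09, -0.13 and 0.61 and passed with EHT-1864, and Vhl, which marks HIF-α for destruction, by 0.74, -0.29 and -0.08 and passed with DMSO. Rac1, a target of EHT-1864, changed by -0.05, -0.52 and -0.03 and passed with BFA, and Arf1, whose activation BFA blocks, by 0.02, 0.22 and -0.05 and passed in no group. The mTORC1 inhibitor gene Tsc1, whose name also stands in the cell label, changed by 0.21, 0.95 and 0.81 and read 7.04, 7.08 and 6.84 in normoxia.

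Markers of oligodendrocyte progenitors were lower mainly in the compound groups. Of 8 measured, 0 were kept by limma (0 unadjusted), 1 was higher with DMSO, 8 were lower with BFA (24.0% of all probes) and 6 were lower in the EHT-1864 group (14.3%). The summed linear signal of the list was 12250 to 12850 in normoxia, 12420 to 12800 in hypoxia with DMSO, 1731 to 1806 with BFA and 5772 to 6705 in the EHT-1864 group. Olig2, which defines the lineage, read 11.63, 11.68 and 11.59 in normoxia, 11.43, 11.44 and 11.45 in hypoxia with DMSO, 7.98, 8.23 and 8.10 with BFA, and 9.07, 9.14 and 9.02 with EHT-1864. Sox2, a stem cell factor, changed by 0.25, -1.42 and -0.53 with DMSO, BFA and EHT-1864. The part of this loss in the kept changes was not tested. With BFA, 3 of 7 mature oligodendrocyte, 4 of 8 astrocyte and 2 of 8 neuronal markers were lower, and with EHT-1864 2, 2 and 1. Higher were 2 astrocyte markers with DMSO, 2 neuronal with BFA, and 1 mature oligodendrocyte and 1 neuronal with EHT-1864. The summed mature oligodendrocyte signal was 5641 to 5747 in normoxia, 1849 to 2103 with BFA and 5454 to 5873 with EHT-1864. Of the markers of mature oligodendrocytes, astrocytes, neurons, microglia, endothelium and fibroblasts 0 were kept (1 neuronal marker unadjusted). Below the floor on all 12 arrays were 7 of 8 microglial, 7 of 8 endothelial and 6 of 8 fibroblast markers.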

How the data were processed

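RNA of 12 cultures was profiled on Clarion S mouse arrays. The deposited log2 values, 1 for each probe on each array, come from RMA run in Affymetrix Expression Console (submitters' processing notes). RMA corrects background and equalizes the distributions of the arrays, so a change of total RNA per cell does not show. Versions, settings and build are not given in the sources used here. Of 28846 rows, 6640 controls were left out of the tests and 22206 probes tested. Through Entrez numbers, 19572 probes had 1 symbol (all matched to a GRCm38.p6 gene table), 0 had several and 2634 none; the brightest probe stood for a gene, which mattered for 55 genes.

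All 12 arrays were fitted with limma 3.58.1 in R 4.3.3 (lmFit and eBayes, residual df 8, prior df 4.87). The contrasts were the mean of the 3 hypoxic groups, and each of them, against normoxia, and the compounds against DMSO in hypoxia, each adjusted by Benjamini-Hochberg over all probes. The script was tested on simulated data. No 2 arrays held identical values.

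Genes named were the 14 largest average rises and 14 largest falls by probe among kept probes with all hypoxic arrays on 1 side of normoxia, the 8 most and 8 least even of those with an average change of at least 1, 3 per gene list, 6 turned genes per compound and 25 set genes (24 measured); genes of unsure function were left out, 1 of the most even genes is not reported here, and others are marked as picked after their values were seen. The members and the 26 lists (428 genes, 394 measured) were chosen with earlier results of these data known. The number of arrays limits the precision. Alternatives were renewed quantile normalization, median subtraction, filters on dim probes, other variance models, array weights, the replicate block, other hypoxic groups in the average, stricter rules for kept, separate fits and each array left out.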

Additional observations from a re-analysis of the deposited data

Results flagged for a closer look

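A number of genes passed higher than normoxia in hypoxia with DMSO and lower than normoxia with a compound. For these the limma difference between the compound and DMSO in hypoxia is given. Both steps used the same arrays, so a passing difference follows largely from the selection and is no separate test. The 6 largest such differences per compound follow as log2 values of compound minus DMSO, with adjusted p values.

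With BFA, Igfbp5, a binding protein of insulin-like growth factors, differed by -3.92 (adjusted p = 6.09e-09); it was 2.66 above normoxia with DMSO and at -1.26 with BFA. Has2, which makes hyaluronan, differed by -3.31 (adjusted p = 3.85e-08), Camk1g, a calcium-dependent kinase, by -3.17 (adjusted p = 1.68e-06), Sez6l by -3.09 (adjusted p = 9.80e-08), the monoamine and nucleoside transporter Slc29a4 by -2.97 (adjusted p = 4.94e-07) and the amino acid transporter Slc38a6 by -2.74 (adjusted p = 6.07e-06).

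With EHT-1864, Kbtbd11 differed by -2.92 (adjusted p = 2.77e-07). Txnip, which binds thioredoxin and restrains glucose uptake, differed by -2.83 (adjusted p = 2.90e-07), from 1.99 above normoxia with DMSO to -0.84. The cartilage collagen Col2a1 differed by -2.80 (adjusted p = 1.75e-07), Slc38a6 by -2.66 (adjusted p = 2.76e-05), the early response gene Ier3 by -2.52 (adjusted p = 1.75e-07) and Has2 by -2.46 (adjusted p = 2.28e-06). Has2 and Slc38a6 thus turned with both compounds.

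Igfbp5, Camk1g, Sez6l and Slc29a4 were below the floor on all BFA arrays, and Ier3 on all EHT-1864 arrays, so their differences are those of dim signals and not exact sizes. Control probes outside the tests also differed between groups. Hybridization controls averaged 10.93 ± 0.12 (SD, n = 3) with BFA and 10.25 ± 0.07 with EHT-1864, against 9.85 ± 0.06 in normoxia (two-sided exact permutation p = 0.1 for each, the smallest that 3 against 3 arrays allow). Poly-A controls averaged 8.22 ± 0.24 with BFA against 7.60 ± 0.42 in normoxia (exact p = 0.1). The share of probes below the floor was 65.21% with BFA and 57.62% with EHT-1864, against 52.05% in normoxia (exact p = 0.1 for each).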

How the results depend on the processing

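The count of kept probes (178, with 124 higher and 54 lower) moved most. It was 277 (110 lower) without the dimmest 25% of probes, 427 (216 and 211) among probes of at least 6 on 3 arrays, 400 (208 and 192) with trended and robust variance, 572 (274 and 298) with array weights, 35 (34 and 1) with at least 2-fold in each group, and 311 (153 lower) in separate fits. Added after seeing the data, it was 415 (212 and 203) among probes above the floor on 3 arrays and 358 (220 and 138) in a refit without the BFA arrays, which asks for fewer groups and held all 178. With the replicate block 134 were kept (34 lower). Deviations of same-numbered arrays of different groups correlated from -0.18 to 0.17 (18 pairs, 1 above 0.1). Those of differently numbered arrays correlated from -0.158 to 0.169 (36 pairs, 5 above 0.1). Same-numbered pairs without a BFA array were all positive, and most pairs with a BFA array were negative. Whether the numbers mark shared cultures is not settled by these values. Quantile normalization gave 210, of which 145 were among the 178, and median subtraction 185. With 1 array left out, kept counts ran from 80 to 266, rises from 66 to 157 and falls from 13 to 109. The average called 3406 to 5994 probes, 1137 to 2245 higher and 2269 to 3749 lower, and shared signs held for 2499 to 4037, 926 to 1602 higher and 1573 to 2441 lower. Probes differing among hypoxic groups numbered 11336 to 13125. The average of BFA and EHT-1864 called 8523 (3772 higher), that of DMSO and EHT-1864 2160 (864 and 1296), and array weights 2975 higher. Hypoxia with DMSO alone (593 called) gave 2258 with array weights, 1264 among probes of at least 6, 1221 with trended and robust variance and 1247 above the floor. Egfr and Epas1, near 0 in the average and dim, changed sign: Egfr to -0.045 and Epas1 to -0.040 with quantile normalization, Epas1 to -0.015 with array weights, and with 1 array left out Egfr ran from -0.051 to 0.116 and Epas1 from -0.056 to 0.098. Other named genes kept the direction of the average under every setting run; 67 of their values fell short of the threshold and 16 newly passed it. The cause of these moves was not tested, and values below the floor limit what dim genes can show.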
